A study of Caenorhabditis elegans with 4 samples.

Results

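The combined LIN-39 peak list held 314 peaks on the X chromosome, out of 1874 peaks on all chromosomes (16.8%). They were taken by chromosome alone and by no measured value. The choice of X was made with earlier results of these data known. The lists of the ChIP replicates held 63 X peaks of 239 in replicate 1 (26.4%) and 24 X peaks of 83 in replicate 2 (28.9%). LIN-39 binding had been mapped by chromatin immunoprecipitation and sequencing (ChIP-seq) in Caenorhabditis elegans hermaphrodites at larval stage L2, grown at 20 °C. The 4 samples were 2 LIN-39 ChIP samples, precipitated with anti-GFP antibodies, and 2 input DNA samples. All came from strain OP18, whose genotype is unc-119(ed3) III with the transgene wgIs18, which holds unc-119(+) and lin-39::TY1::EGFP::3xFLAG and was introduced by bombardment and outcrossed 3 times. ChIP and input worms thus carried the same tagged copy of lin-39, and no untagged strain was analysed here. Whole larvae were used, so a peak cannot be assigned to a tissue. The labels number the replicates but do not say whether they came from separate cultures.

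LIN-39 is a Hox protein, a homeodomain transcription factor that patterns the middle of the body. In C. elegans it is required for the fate of the vulval precursor cells, for the migration of neuroblasts of the Q lineage and for the identity of midbody motor neurons. Hermaphrodites carry a pair of X chromosomes, on which a dosage compensation complex lowers transcription to match the single X of males. The worm X is poor in genes expressed in the germline and rich in genes of somatic tissues such as muscle and neurons. It also lacks the sharp division into gene-dense centre and repeat-rich arms that marks the autosomes.

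Positions refer to the WormBase WS220 build, and each peak carries a value from the authors' peak caller, read here as a q-value, an adjusted p-value for enrichment over a control. A smaller q-value is called a stronger peak here and does not mean more binding. These values did not rise steadily with the authors' peak number, so between close values the smaller need not mean more evidence. The peak caller was PeakSeq, which compares ChIP reads with a control. No genome or gene annotation of that build was used, so neither the bases under the peaks nor the genes beside them are given. The lists hold no read counts, and the depth behind them is unknown. Peaks of 1 list share their libraries and are not replicates, so shares are given with Wilson 95% intervals for counting error only and no test was made.

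The strength of the X peaks was concentrated in a few. Their q-values ran from 2.01e-33 to 0.000991, with a median of 0.000102. Only 17 of the 314 lay below 1e-10 and 72 (22.9%) below 1e-05, while 158 lay between 1e-04 and 0.001. Over all chromosomes 448 combined peaks lay below 1e-05, and X held 16.1% of them, near its share of the whole list. The share below 1e-05 was therefore not particular to X. The other 2 counts were made for X alone. In replicate 1 the X q-values ran from 1.52e-18 to 0.0009997 with a median of 0.000202, and in replicate 2 from 5.68e-12 to 0.000861 with a median of 1.90e-05. X peaks made up 9 of the 20 strongest combined peaks of all chromosomes and 20 of the 100 strongest. Chromosome I held 56 of those 100, III held 11, IV held 6, II held 4 and V held 3. In the whole combined list X held 16.8% of peaks, I 41.9%, V 11.7% and II to V together 41.4%.

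The 10 strongest X peaks were all found in both replicates, and so were 16 of the 20 strongest. Of the 314 X peaks, 18 overlapped peaks of both replicates (5.73%, 3.66 to 8.88%), against 3.15% of combined peaks on all chromosomes. Another 39 were found in replicate 1 only (12.4%, 9.22 to 16.5%), 5 in replicate 2 only (1.59%, 0.682 to 3.67%) and 252 in neither (80.3%, 75.5 to 84.3%). Over the 1560 peaks of other chromosomes these shares were 7.24%, 1.09% and 89.0%, and on II to V they were 7.61%, 1.68% and 87.4%. In sum 57 X peaks overlapped a replicate 1 peak (18.2%, against 11.3% over all chromosomes) and 23 a replicate 2 peak (7.32%, against 4.32%). At least 1 replicate listed 62 of them (19.7%, 15.7 to 24.5%), against 12.4% over all chromosomes. The replicates and the combined list belong to 1 experiment, so recurrence between them is not independent support for a peak.

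**Figure D1:**
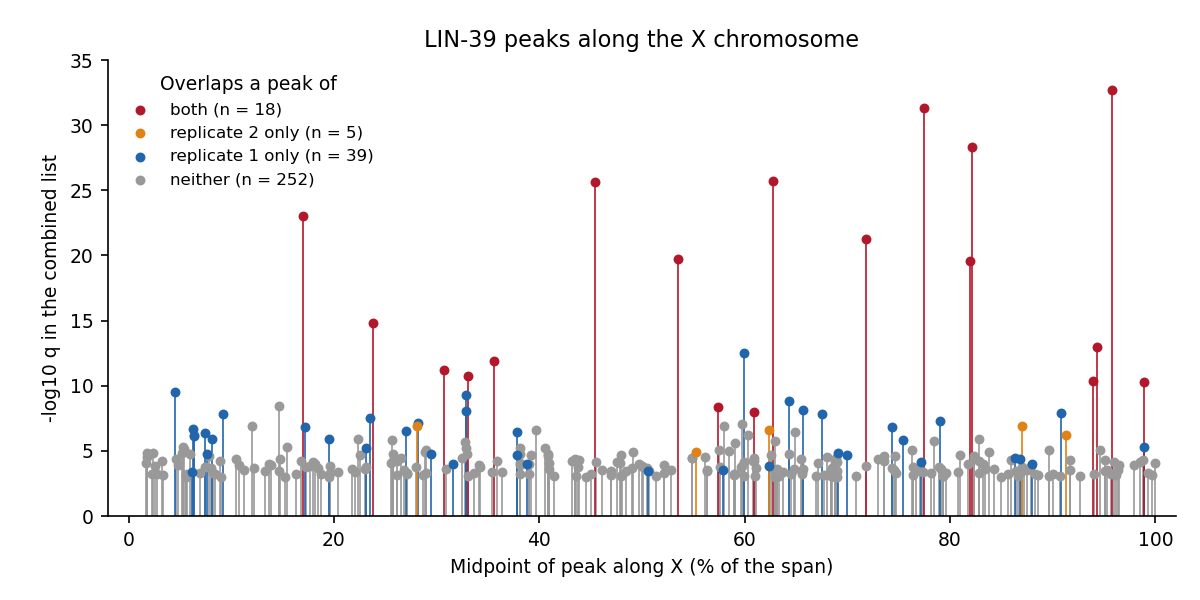
Each point is 1 of the 314 X peaks of the combined list, placed by its midpoint as a percentage of the X span (horizontal) and its -log10 q (vertical), and coloured by the replicate lists it overlaps. The 18 peaks found in both replicates reach from 8.00 to 32.7, and the 252 found in neither stay at or below 8.44.

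The strongest X peak was X:16929333-16931827, near the right end of the chromosome at 95.7% of the span. Its q-value was 2.01e-33, and it ranked 5 among all combined peaks. At 2495 bp it was also the widest X peak. Both replicates listed this region as 2 peaks. Replicate 1 had X:16929399-16929934 (q = 1.59e-06) and X:16930442-16931746 (q = 3.65e-13), 507 bp apart. Replicate 2 had X:16929393-16929918 (q = 2.64e-07) and X:16930231-16931715 (q = 9.69e-06), 312 bp apart. The broader right peak was thus the stronger in replicate 1 and the weaker in replicate 2. No other X peak of the combined list overlapped more than 1 peak of a replicate.

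The next X peak, X:13700438-13701091, was 654 bp wide. Its combined q-value was 4.49e-32, with 1.33e-17 in replicate 1 and 5.68e-12 in replicate 2. X:14525419-14526171 followed with a combined q-value of 5.18e-29, 7.19e-17 in replicate 1 and 6.07e-11 in replicate 2. Both stood high in every list, at ranks 4 and 6 over all chromosomes in replicate 1 and ranks 3 and 8 in replicate 2. X:11093831-11094355 had q-values of 1.95e-26, 5.53e-18 in replicate 1 and 4.12e-09 in replicate 2. X:8036013-8036789 had 2.43e-26, 1.88e-16 in replicate 1 and 5.82e-11 in replicate 2. The peak X:2996420-2997428 lay apart from these, at 16.9% of the span, and was the strongest X peak of replicate 1. Its combined q-value was 9.65e-24, with 1.52e-18 in replicate 1 and 1.67e-07 in replicate 2.

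X:12690267-12690683 had nearly equal q-values in the replicates, 2.70e-10 in replicate 1 and 2.32e-10 in replicate 2, with 5.43e-22 in the combined list. The replicates differed more over X:9465498-9466075, where a combined q-value of 1.96e-20 stood beside 2.11e-15 in replicate 1 and 9.86e-05 in replicate 2. X:14487260-14487633 showed the same order, with a combined q-value of 2.59e-20, 2.74e-15 in replicate 1 and 4.64e-05 in replicate 2. At 374 bp it was the narrowest of the X peaks in both replicates. It lay 38349 bp, midpoint to midpoint, from X:14525419-14526171, the closest pair among the 18. X:4209007-4209505 closed the 10 strongest, with a combined q-value of 1.57e-15, 6.02e-09 in replicate 1 and 0.000122 in replicate 2.

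The other 8 X peaks in both replicates were weaker, with combined q-values from 1.00e-13 to 9.92e-09. Of these, X:16681769-16682251, X:6296181-6296860, X:5429123-5429773 and X:5840915-5841433 ranked 11, 13, 14 and 15 on X. Their q-values lay between 1.12e-08 and 9.72e-06 in replicate 1 and between 1.60e-05 and 0.000101 in replicate 2, lower in replicate 1 for each. X:16612101-16612790 had 3.60e-05 in replicate 1 and 3.41e-05 in replicate 2, a near tie. X:17479568-17480524, at 98.9% of the span, went the other way, with 0.000237 in replicate 1 and 8.52e-06 in replicate 2. It had the largest lead of replicate 2 over replicate 1 among the shared X peaks, 1.44 units of -log10 q. X:10146421-10146890 and X:10765972-10766541 were the weakest, at ranks 22 and 25 on X. The last had q-values of 0.000676 in replicate 1 and 0.000647 in replicate 2.

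**Figure D2:**
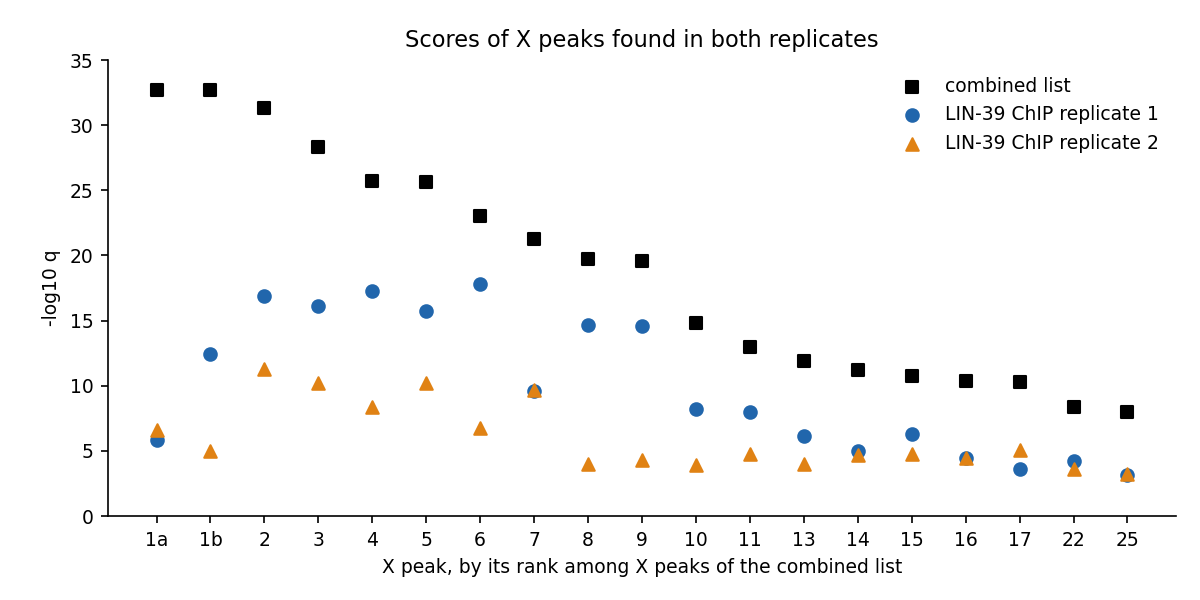
The -log10 q of the 18 X peaks in both replicates is shown in the combined list (squares), replicate 1 (circles) and replicate 2 (triangles), ordered by rank among X peaks of the combined list, with a and b marking the 2 replicate peak pairs inside the strongest one. Replicate 1 lies above replicate 2 at most peaks, and its lead is widest at rank 6, where it is 17.8 against 6.78.

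The 18 peaks gave 19 pairs of overlapping replicate peaks, of which 14 had the smaller q-value in replicate 1 and 5 in replicate 2. The median difference in -log10 q, replicate 1 minus replicate 2, was 3.16 (range -1.44 to 11.04). Over these 19 pairs the scores had a Spearman rho of 0.619 and a Pearson r of 0.640, and rho was 0.647 over the 17 pairs outside the strongest peak. These are descriptions across peaks that share 2 libraries and a caller. Outside the strongest peak, the combined -log10 q was close to the sum of the replicate values, with a median ratio of 1.07 (range 0.936 to 1.26).

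Pairs were defined by overlap, which limits how far their ends and midpoints can lie apart. Midpoints differed by a median of 19 bp (interquartile range 11 to 48.3, largest 121), and 14 of 19 pairs lay within 50 bp. Starts differed by a median of 47 bp and ends by 31 bp. The narrower peak of a pair was covered by its partner over a median of 100% of its length (lowest 78.2%), and 11 of 19 lay wholly inside the partner. The shared bases made up a median of 84.0% of the joint extent (57.8 to 97.0%). The lowest of these values came from X:10146421-10146890 and the highest from X:13700438-13701091. Widths were similar, with medians of 536 bp in replicate 1 and 484 bp in replicate 2, and neither replicate was regularly the wider (9 and 10 pairs). Widths of paired peaks had a Spearman rho of 0.804 over 19 pairs and 0.787 over the 17 outside the strongest peak. Replicate peaks lay wholly inside the combined peak in 18 pairs for replicate 1 and 16 for replicate 2.

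**Figure D3:**
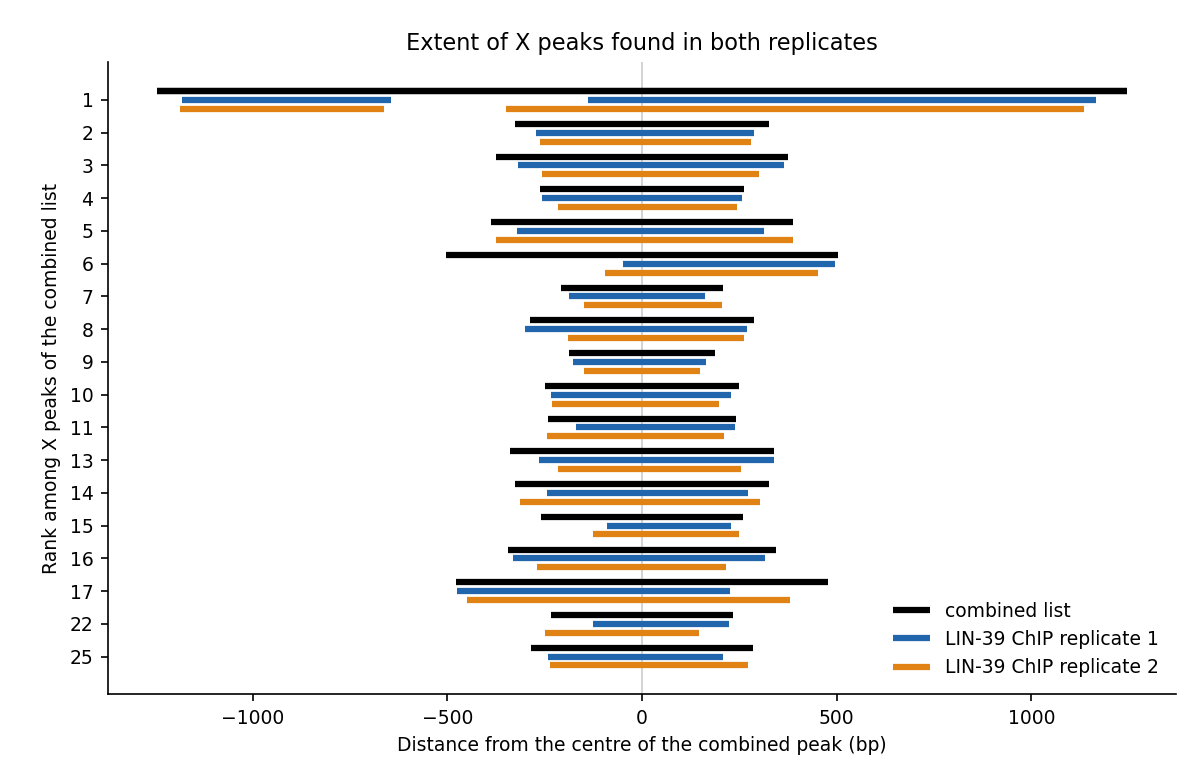
Bars show the extent of each X peak found in both replicates, as distance in bp from the centre of the combined peak, with the combined list above replicate 1 and replicate 2, ordered by rank on X. Peak 1 spans 2495 bp in the combined list and is split in both replicates, and peak 6 extends to the left in the combined list only.

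At X:2996420-2997428 the combined peak was 1009 bp wide, but the replicate peaks filled only its right part, 547 bp in replicate 1 and 550 bp in replicate 2. This was the second widest X peak. The next were X:11605351-11606349 (999 bp, in replicate 1 only), X:17479568-17480524 (957 bp, in both) and X:10591232-10592025 (794 bp, in replicate 1 only). All 5 widest were found in at least 1 replicate.

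The median X peak of the combined list was 224.5 bp wide (interquartile range 115 to 383), and the 314 peaks covered 87278 bp, or 0.494% of the span. The median was 319 bp in replicate 1 (172 to 498) and 478 bp in replicate 2 (423 to 574). Their X peaks covered 21038 bp and 12635 bp. Widths and scores of the combined X peaks had a Spearman rho of 0.344 over 314 peaks, and 0.338 without the strongest, against 0.418 over the 1560 peaks of other chromosomes. The peaks share a library, and a caller that sets both width and score.

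Recurrence on X was higher among wider peaks. Of the 74 X peaks of 400 bp or more, 33 were in at least 1 replicate (44.6%, 33.8 to 55.9%) and 17 in both. Of 101 peaks from 200 to under 400 bp, 19 were in at least 1 (18.8%, 12.4 to 27.5%) and 1 in both, and of 92 from 50 to under 200 bp, 10 were (10.9%, 6.01 to 18.9%). None of the 47 peaks under 50 bp was in a replicate list (0%, 0 to 7.56%). These narrow peaks made up 15.0% of the X list (11.4 to 19.3%), against 17.1% of the other chromosomes (15.3 to 19%). Their median -log10 q was 3.78, near the 3.67 of peaks from 50 to under 200 bp. It was 4.01 for X peaks from 200 to under 400 bp and 5.13 for those of 400 bp or more. The widest class was thus also the strongest, and width was not separated from score. Recurrence by width was counted on X alone, so no share over all chromosomes stands beside it. The narrowest were 6 peaks of 2 bp, all in neither replicate, of which the first 5 by position began at X:922592, X:1007163, X:1583365, X:3470444 and X:10756374.

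**Figure D4:**
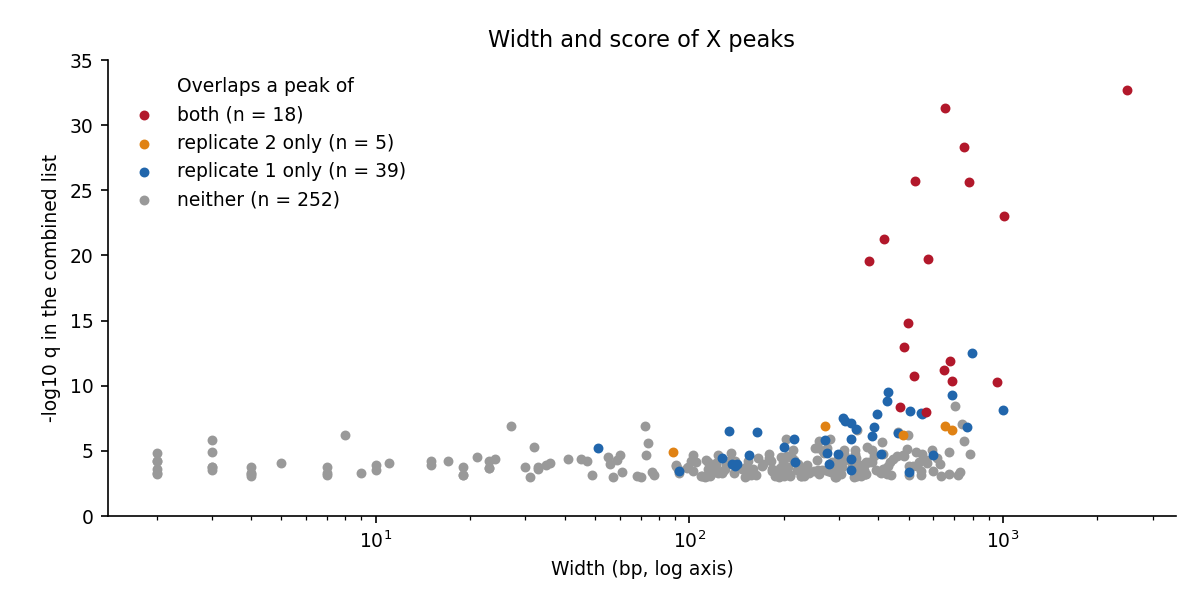
Width in bp (horizontal, log axis) is plotted against -log10 q in the combined list for the 314 X peaks, coloured by the replicate lists they overlap. The 18 peaks found in both replicates are all 374 bp or wider, and no peak under 50 bp was found in a replicate.

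Recurrence also fell with rank on X. Among ranks 21 to 50 on X, replicate 1 listed 17 of 30 peaks (56.7%, 39.2 to 72.6%) and replicate 2 listed 6 (20.0%, 9.51 to 37.3%). Among ranks 51 to 100, 11 of 50 were in at least 1 replicate (22%, 12.8 to 35.2%), among ranks 101 to 200, 7 of 100 (7%, 3.43 to 13.7%), and among the last 114, 3 (2.63%, 0.899 to 7.45%). No X peak past rank 25 was in both replicates. Rank 21 was the first in neither, X:2598554-2599258 (705 bp, q = 3.61e-09). The next X peaks in neither were X:10568352-10569092 (741 bp, q = 8.61e-08) and X:10245724-10245795, which was 72 bp wide (q = 1.28e-07). Of the 50 strongest X peaks, 9 were in neither replicate, and 3 of these 9 were under 100 bp wide.

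At matched ranks in the list of all chromosomes, X and the autosomes II, III, IV and V had similar recurrence among the strong peaks. Among ranks 1 to 100, at least 1 replicate listed 20 of 20 X peaks (100%, 83.9 to 100%) and 24 of 24 peaks of II to V (86.2 to 100%). Among ranks 101 to 500 the shares were 27 of 60 on X (45.0%, 33.1 to 57.5%) and 59 of 147 on II to V (40.1%, 32.6 to 48.2%). Among ranks 501 to 1000 they were 11 of 89 on X (12.4%, 7.04 to 20.8%) and 8 of 205 on II to V (3.90%, 1.99 to 7.51%), and past rank 1000 they were 4 of 145 (2.76%) and 7 of 399 (1.75%). Chromosome I was lower than X in each class, with 41 of 56, 32 of 193, 0 of 206 and 0 of 330. The intervals reflect counting error over peaks that share libraries, so they do not compare the chromosomes. The differences between chromosomes were not tested, and the classes were chosen with the counts of the whole series known.

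**Figure D5:**
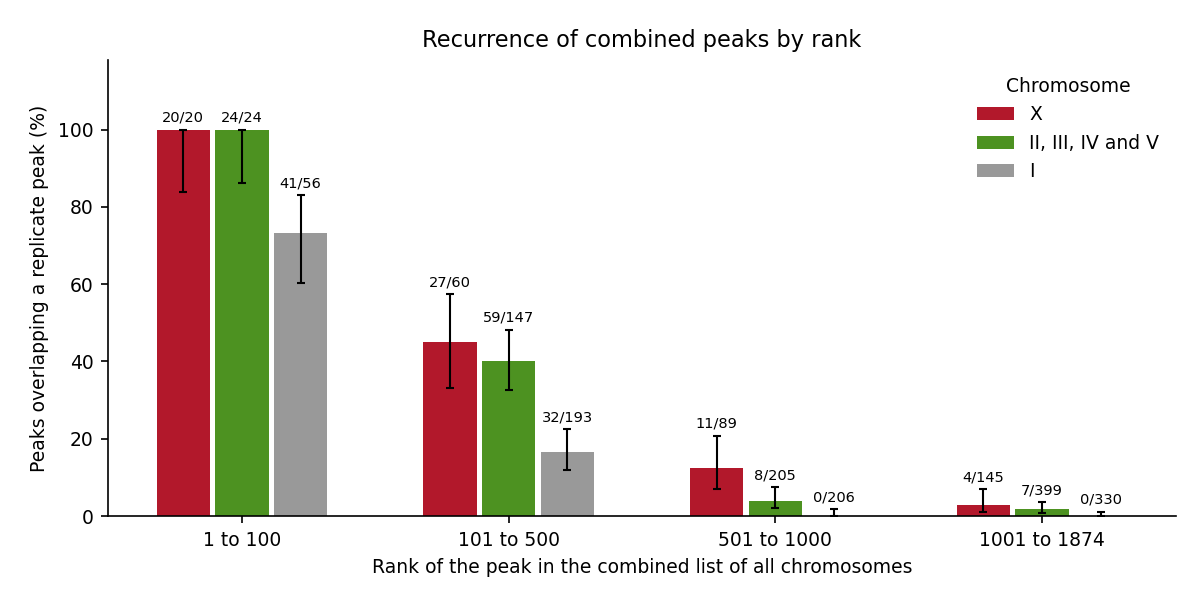
Bars give the percentage of combined peaks that overlap a peak of at least 1 replicate, by rank among all chromosomes, for X, for II, III, IV and V together, and for I, with Wilson 95% intervals and counts above. X and II to V are both at 100% in ranks 1 to 100, where I is at 73.2%.

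The replicates were then compared with each other on X. Of the 24 X peaks of replicate 2, 19 overlapped a replicate 1 peak (79.2%, 59.5 to 90.8%), against 72.3% for replicate 2 peaks of all chromosomes. Conversely 19 of 63 X peaks of replicate 1 were in replicate 2 (30.2%, 20.2 to 42.4%), against 25.1% over all chromosomes. By bases, 75.7% of the X sequence listed by replicate 2 was also listed by replicate 1, and 45.4% the other way. X peaks of replicate 1 that replicate 2 shared had a median -log10 q of 8.22 and width of 536 bp, and the 44 that it lacked had 3.48 and 215 bp. In replicate 2 the shared X peaks had medians of 4.80 and 484 bp, and the 5 unshared ones 3.32 and 462 bp.

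The strongest X peak of replicate 1 without a partner in replicate 2 was X:10591233-10591723 (q = 4.16e-07), which lay in the peak ranked 12 on X in the combined list. X:806496-806881 (q = 2.49e-06) and X:5816138-5816694 (q = 1.14e-05) followed, inside the peaks ranked 18 and 19. The median distance of the 44 to the nearest replicate 2 peak was 300837 bp, and 2 lay within 5 kb of one. In replicate 2 the strongest X peaks without a partner were X:11030963-11031627 (q = 1.23e-05), X:4961883-4962554 (q = 2.98e-05) and X:9774914-9774957 (q = 0.000477). Replicate 1 had a peak 4094 bp from the first of them and 15724 bp from the second. The last was 308856 bp from any and, at 44 bp, the narrowest X peak of replicate 2. A region absent from a list holds no listed peak there, which does not show a difference between replicates.

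All 24 X peaks of replicate 2 overlapped a peak of the combined list (100%, 86.2 to 100%, against 98.8% over all chromosomes). Of the 63 of replicate 1, 58 did (92.1%, 82.7 to 96.6%, against 89.1%). The 5 absent ones were narrow and weak. X:7686108-7686193 was 86 bp wide, and X:10246546-10246560, X:13074869-13074879, X:15523045-15523051 and X:7217752-7217758 were 7 to 15 bp wide. Their q-values lay between 0.000336 and 0.0009997. X:7686108-7686193 was 422 bp and X:10246546-10246560 was 750 bp from the nearest combined peak, and the other three were 5495 bp or more away.

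Along the chromosome the X peaks were spread over nearly the whole span of 17.7 Mb. The first began at position 303794, and the 303793 bp before it are not counted among the gaps below. The last ended at 17682480, the largest X coordinate of any list, which by definition ended the span. Peak density was 17.8 per Mb for the combined list, 3.56 per Mb for replicate 1 and 1.36 per Mb for replicate 2. Every 1 Mb bin held at least 11 combined peaks, with a median of 17 and a maximum of 25. The fullest bins were X:11000001-12000000 with 25, X:10000001-11000000 with 23 and X:1000001-2000000 with 21, a number also reached by X:13000001-14000000. The emptiest full bin was X:9000001-10000000 with 11, and the last 0.682 Mb of the span also held 11. Replicate 1 had 1 to 7 peaks in each bin, and replicate 2 had none in 4 of the 18 bins and 5 in X:16000001-17000000. In each replicate the peaks of that bin included the 2 inside the strongest X peak.

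The middle 50% of the span held 164 of the 314 X peaks (52.2%, 46.7 to 57.7%), 32 of 63 in replicate 1 (50.8%, 38.8 to 62.7%) and 12 of 24 in replicate 2 (50.0%, 31.4 to 68.6%). The first and last 25% held 72 and 78 combined peaks and 14 and 17 of replicate 1. In replicate 2 they held 2 (8.33%, 2.32 to 25.8%) and 10 (41.7%, 24.5 to 61.2%). In each replicate the last 25% included the 2 peaks inside the strongest X peak. The first X peak of replicate 2 lay at 16.9% of the span, whereas replicate 1 had 8 peaks in the first 2 bins. Among the peaks in both replicates, 9 of 18 lay in the middle 50%, and the bin X:16000001-17000000 held 3 of them, more than any other. The bin X:7000001-8000000 held 15 combined peaks, of which none was in a replicate. Replicate 1 nevertheless listed 2 peaks there, X:7217752-7217758 and X:7686108-7686193, both absent from the combined list.

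Neighbouring X peaks were separated by a median gap of 34575 bp (interquartile range 9916 to 80037). The median gap on II to V was 54750 bp, and that on chromosome I, where peaks were densest, was 8671 bp. Of the 313 gaps on X, 24 were at most 2 kb and 54 exceeded 100 kb. The widest was X:4209506-4525049 (315544 bp), which followed directly on the peak ranked 10 on X. The others among the 5 widest were X:7334658-7631164 (296507 bp), X:6422917-6687457 (264541 bp), X:17062257-17317120 (254864 bp) and X:9466076-9704557 (238482 bp), the last following on the peak ranked 8. In replicate 1 the median gap was 219080 bp, and in replicate 2 it was 466580 bp.

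A neighbour within 2 kb was found for 43 of the 314 X peaks (13.7%, 10.3 to 17.9%), against 87 of 775 on II to V (11.2%, 9.19 to 13.6%) and 276 of 785 on I (35.2%, 31.9 to 38.6%). The share on X was near that of II to V and below that of I, and neither difference was tested. Of the 43, 11 had a q-value below 1e-05 (25.6%), against 22.9% of all X peaks. Joined at that distance the X peaks made 290 regions: 271 single peaks, 16 pairs, 2 regions of 3 peaks and 1 of 5. The region of 5 was X:6740538-6745749, whose smallest q-value was 6.04e-06, and none of its peaks was in a replicate. X:11603162-11606349 held 3 peaks, 1 of them in replicate 1 (smallest q-value 7.70e-09). X:12204338-12207263 also held 3, none in a replicate, with a smallest q-value of 6.64e-05. Of the 18 X peaks in both replicates, 1 had such a neighbour: X:17479568-17480524, in the region X:17477395-17480524, whose other peak was in replicate 1 as well.

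Width and score were last set beside those of the other chromosomes, without a test. The median width of 224.5 bp on X stood against 185 bp on II to V, 223 bp on I and 199 bp over all other chromosomes. The median -log10 q was 3.99 on X, 3.83 on II to V and 4.08 on I. Chromosome V, with 219 peaks, had medians of 147 bp and 3.73. In replicate 2 the median -log10 q of X peaks was 4.73, against 3.69 for the 59 peaks of other chromosomes, and in replicate 1 it was 3.69, against 3.64 for 176. The median width was 478 bp on X against 390 bp elsewhere in replicate 2, and 319 bp against 279.5 bp in replicate 1.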

How the data were processed

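LIN-39 ChIP-seq peak lists of ChIP replicates 1 and 2 and the combined list of the series were used. The peak lists at hand included none for the input DNA samples. Per the file headers and source column, the authors called peaks with PeakSeq on WormBase WS220. The aligner, the caller's version, its threshold and control, and any pooling of reads for the combined list were not given in the sources used here. The deposited p-value column was read as Benjamini-Hochberg q-values that had not been made to rise with peak number. Ranks among close values are therefore approximate. In order of peak number the combined values fell at 886 of 1873 steps. Multiplied by the peak number they fell at 0 (tolerance 1e-09). In replicate 1 the counts were 73 and 0 of 238 steps, and in replicate 2 they were 17 and 0 of 82.

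Peaks were taken as X where the chromosome column read X. Position was the midpoint as a share of the span, which ran from 1 to the largest X coordinate in the 3 lists. A gap was the number of bases between neighbouring peaks. Peaks shared at least 1 bp to count as overlapping. Shares carry Wilson 95% intervals, which reflect counting error alone. Depth is unknown because the lists hold no read counts. Peaks of 1 list share their libraries, so no test was run. The X peaks and all summaries were chosen with earlier results of these data known. Named regions were the X peaks in both replicates, the 10 strongest, the 5 widest and 5 narrowest, the 3 strongest in neither replicate, the 3 strongest of each replicate without a partner, replicate peaks absent from the combined list, the 3 fullest groups joined at 2 kb, the 5 widest gaps, and the 3 fullest and the emptiest 1 Mb bins. Overlap, gap and group counts were checked on simulated lists. The work used scipy 1.17.1, pandas 2.3.3 and numpy 2.4.6 under Python 3.11.15, and figures were drawn with matplotlib 3.10.9. Alternatives were an overlap of 50% of the narrower peak, a q-value below 1e-05, a minimum width of 50 bp, other neighbour distances and spans, each replicate left out, and chromosome I left out.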

Additional observations from a re-analysis of the deposited data

How the results depend on the processing

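No paired analysis was possible because the results come from peak lists of the ChIP samples alone and from no test. The 8 summaries of X peaks were recomputed with other settings, and 14 of the 27 values so obtained stayed within the 95% interval of the reported value. Some settings, such as the middle 33.3% of the span or neighbour distances of 1 kb and 5 kb, define another quantity. Their values could not be expected to stay, so the count does not measure stability. An overlap of 50% of the narrower peak changed none of the 3 overlap shares. Keeping combined peaks with q below 1e-05 left 72 X peaks, so the share in at least 1 replicate became 63.9%, the share in both 25%, the median width 422 bp, the median gap 163270 bp and the share with a neighbour within 2 kb 8.33%. Without peaks under 50 bp the median width was 275 bp. Using a single replicate list, the share of X peaks found ranged from 7.32% (without replicate 1) to 18.2% (without replicate 2). The share with a close neighbour was 6.69% at 1 kb and 28.0% at 5 kb, and at 2 kb 9.52% in the replicate 1 list and 8.33% in that of replicate 2. In replicate 2 this was 2 of 24 peaks, both inside the strongest X peak of the combined list. The middle 33.3% of the span held 34.1% of X peaks. Without chromosome I, X held 28.8% of combined peaks. The lists hold no counts, so what depth limits cannot be given.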
